A study of Mus musculus with 16 samples.

Results

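The complement system was followed here through 30 genes, chosen by name as complement factors and regulators and found on the arrays through the RefSeq accession that each probe carries. They comprise 8 genes of the recognition molecules and first proteases, 6 of the convertases, 7 of the terminal pathway, 7 regulators and 2 receptors. Of these, 29 had a probe that passed the filter on dim signal, out of 15053 named genes tested on the arrays, and 1, Cfd, did not. Complement is a cascade of plasma proteins, most of them made by hepatocytes, that marks microbes and damaged cells, recruits leukocytes and punches pores into membranes. Antibody or microbial sugars start it through the classical and lectin pathways, whose proteases assemble convertases on the target. The convertases split C3 and then C5, and C5b collects C6, C7, C8 and C9 into the membrane attack complex, while soluble and membrane-bound regulators hold each step back on the body's own cells.

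The RNA came from primary cultured hepatocytes of male C57Bl/J mice kept in Williams Medium E, which means hepatocytes isolated from liver and plated. From 48 h after plating, the cells were kept for 48 h without a drug, with SQ1 at 100 µM, or with pravastatin at 30 µM. SQ1 (squalestatin 1) inhibits squalene synthase, and pravastatin inhibits HMG-CoA reductase, an earlier step of cholesterol synthesis. Squalestatins act at far lower doses, so that the unit of the labelled SQ1 dose is uncertain, and the doses of the drugs differ. Each of 16 arrays compared treated with untreated RNA in different dyes, 8 arrays for SQ1 and 8 for pravastatin, with the treated RNA in Alexa 647 on replicates 1 to 4 and in Alexa 555 on replicates 5 to 8. The series text describes 8 control and 8 treated biological replicates, so that both drugs may have been set against the same control cultures. Nothing says how many animals they came from, and p-values measure the spread between arrays.

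Between 23227 and 27430 probes per channel were well above background, the Agilent mark for a spot brighter than its surround. The number of arrays limits the precision, and the median standard error over all genes was 0.0398 (SQ1) and 0.0399 (pravastatin) on the log2 scale. All 14 hepatocyte markers were measured. Every tested member apart from C7 was well above background in all 16 control channels. A value below is a log2 ratio of treated over control with the dye effect of the gene removed, written as lowest, median and highest over the 8 arrays of a drug, or a fitted log2 fold change with its standard error. A gene is said to have risen or fallen where the limma fit gave a Benjamini-Hochberg adjusted p, over 15053 genes, under 0.05. Whether a probe tells near-identical copies apart (C1ra and C1rb, C1s1 and C1s2, C4b and C4a, Cd55 and Cd55b, Cd59a and Cd59b) was not tested, so that values of these genes may include the copy.

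With pravastatin, 27 of the 29 tested genes fell, 1 (Clu) rose and 1 (C7) did not pass. Over all genes the test called 66.7% in either direction, 35.8% lower and 30.9% higher. The median log2 fold change of the 29 was -0.728, against -0.0116 over all genes, and 9 of them fell at least 2-fold, as 4.01% of all genes did. With SQ1, 18 of the 29 fell and 0 rose in the limma fit, where 32.3% of all genes were called, 16.5% lower and 15.7% higher. At an unadjusted p under 0.05, 0 were higher and 19 lower. The median of the 29 was -0.188 against -0.00235 over all genes, and 2 fell at least 2-fold (C8a and C9), against 0.259% of all genes. The other 11 (C1s1, Masp1, Fcna, Colec11, C2, C4b, C3, C7, Cd55, Clu and Cr1l) did not pass with SQ1. By group median, the RNA falls were deepest in the terminal pathway, whose 7 genes had a median of -1.78 with pravastatin and -0.682 with SQ1.

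**Figure D1:**
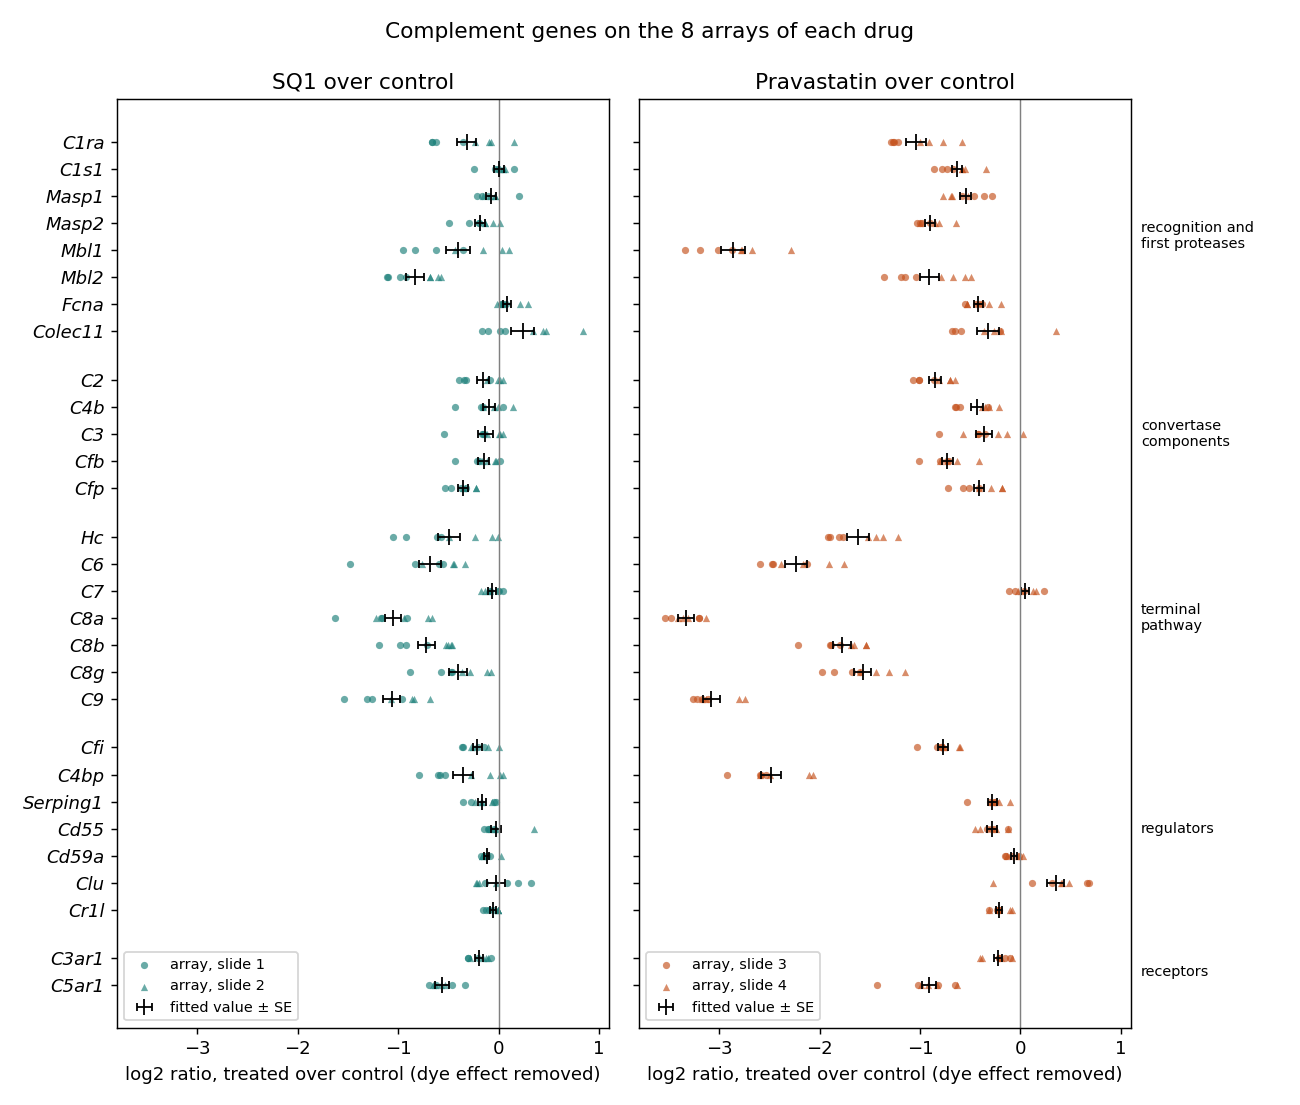
Log2 ratio of treated over control (x axis, dye effect removed) for each of the 29 tested complement genes, grouped by role, on the 8 arrays of SQ1 (left) and the 8 of pravastatin (right). Points are arrays, with shape by slide, and the black mark is the fitted value ± 1 standard error; with pravastatin C8a, C9 and Mbl1 lie farthest to the left (-3.33, -3.08 and -2.86) and Clu lies to the right of 0 (0.35).

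Centring each array on its median in place of the loess curve left 20 of 29 lower with pravastatin (median -0.51) and 8 of 29 lower with SQ1 (median -0.0699). Calls over all 15053 genes, in either direction, went from 10041 to 7171 with pravastatin and from 4860 to 2071 with SQ1. The same change moved the share of higher genes among all calls from 46.3% to 61% with pravastatin and from 48.7% to 71.1% with SQ1, and Agilent's own ratios gave 56.8% with pravastatin. Apart from Cd59a with pravastatin, no member called by the test changed its direction under any of the scalings.

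Promoter windows were looked up for the genes above because 27 of the 29 tested members fell with pravastatin. RefSeq windows on GRCm38.p6, from 250 bases before to 50 after a transcript start, were found for 23 of the 30 genes (25 windows), and Masp1, C2, C4b, Cfb, Cfi, Serping1 and Clu had none in the table. The 5 short motifs of factors that act on liver or acute-phase genes listed here were searched on both strands. The HNF1 motif, GTTAAT followed by any base and ATT, occurred in 2 of the 25 windows, those of Hc and C4bp, and in 0.399% of 32851 windows of all genes. The C/EBP motif TTNNGNAA was in 12 of the 25 windows, those of 11 genes, and in 40.7% of all windows. STAT motifs (TTCNNNGAA) were in 5 of the 25 windows (C1ra, Masp2, Colec11, C7 and C8a) and in 8.3% of all windows. The NF-kB motif, GGG and TTCC with any 3 bases between, was in 1 (C3ar1) and in 5.56% of all, and the interferon response motif, GAAA repeated after any 2 bases, was in 2 (Colec11 and Cd59a) and in 3.44% of all. A match is a run of letters and shows no binding. The 250 bases before the start are shown, 5′ to 3′ on the gene's strand, for the 4 genes with the deepest pravastatin falls (C8a, C9, Mbl1 and C4bp) and for Hc, the other gene with the HNF1 letters, with matches in capitals. C8a lies at chr4:104876399-104876648 (minus strand) and holds a STAT match. C9 lies at chr15:6445096-6445345 (plus strand) and holds a C/EBP match on the opposite strand. Mbl1 lies at chr14:41151206-41151455 (plus strand) and holds none of the 5. C4bp lies at chr1:130661619-130661868 (minus strand) with a C/EBP match followed by an HNF1 match, and Hc lies at chr2:35061413-35061662 (minus strand) with an HNF1 match on the opposite strand.
C8a: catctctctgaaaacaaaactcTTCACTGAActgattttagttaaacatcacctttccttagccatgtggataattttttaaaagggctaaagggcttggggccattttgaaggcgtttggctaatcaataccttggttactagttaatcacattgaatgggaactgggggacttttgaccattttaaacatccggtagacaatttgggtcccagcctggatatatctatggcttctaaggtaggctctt
C9: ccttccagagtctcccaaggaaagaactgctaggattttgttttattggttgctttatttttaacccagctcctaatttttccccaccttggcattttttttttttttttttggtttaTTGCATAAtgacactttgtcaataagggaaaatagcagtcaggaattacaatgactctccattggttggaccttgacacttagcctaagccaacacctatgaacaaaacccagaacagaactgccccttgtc
Mbl1: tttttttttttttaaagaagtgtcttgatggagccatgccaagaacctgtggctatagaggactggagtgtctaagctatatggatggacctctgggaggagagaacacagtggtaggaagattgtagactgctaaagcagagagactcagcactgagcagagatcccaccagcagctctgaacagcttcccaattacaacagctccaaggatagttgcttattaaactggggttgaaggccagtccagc
C4bp: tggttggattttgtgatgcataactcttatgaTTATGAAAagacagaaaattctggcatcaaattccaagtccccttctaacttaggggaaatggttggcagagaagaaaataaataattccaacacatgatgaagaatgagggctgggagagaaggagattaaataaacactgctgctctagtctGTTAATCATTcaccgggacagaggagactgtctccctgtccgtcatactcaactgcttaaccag
Hc: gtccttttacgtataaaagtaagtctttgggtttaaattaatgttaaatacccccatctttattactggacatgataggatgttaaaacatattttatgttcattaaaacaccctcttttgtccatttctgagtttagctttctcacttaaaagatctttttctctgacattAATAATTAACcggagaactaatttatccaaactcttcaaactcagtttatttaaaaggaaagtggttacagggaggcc

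The terminal pathway held the deepest falls. With pravastatin 6 of its 7 genes fell, all 6 at least 2-fold, and with SQ1 the same 6 fell, C8a and C9 at least 2-fold. C7 passed in neither. C8a encodes the alpha chain of C8, which enters the membrane with the growing pore. Its control channels on the pravastatin arrays had a log2 intensity of 13.53 to 15.10 (median 14.62) and its pravastatin channels 10.18 to 11.85 (median 11.27), so that the ranges did not overlap. Over the pravastatin arrays, C8a ran from -3.54 through a median of -3.33 to -3.13. C8a fell to 0.0996 of its control level (-3.33 ± 0.082, adjusted p = 5.20e-14), and 23 of all 15053 genes had a lower fitted value. Ratios of C8a with SQ1 lay between -1.63 and -0.66, with a median of -1.05. C8a fell 2.07-fold with SQ1 (-1.05 ± 0.082, adjusted p = 1.19e-07), and all 16 arrays of the drugs were below 0. A second, dimmer probe of C8a fell by less, 3.78-fold with pravastatin and 1.52-fold with SQ1.

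C9, the subunit that polymerises into the ring of the pore, followed closely. Its control channels on the pravastatin arrays lay between 10.66 and 12.16 (log2 intensity) and its treated channels between 8.04 and 9.08, again without overlap. For C9, the pravastatin arrays gave -3.26 (lowest), -3.15 (median) and -2.75 (highest). C9 fell 8.44-fold with pravastatin (-3.08 ± 0.082, adjusted p = 8.09e-14). On SQ1 arrays C9 had a lowest ratio of -1.55, a median of -1.01 and a highest of -0.68. It fell 2.09-fold with SQ1 (-1.07 ± 0.082, adjusted p = 1.04e-07), the deepest SQ1 value among the 29.

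**Figure D2:**
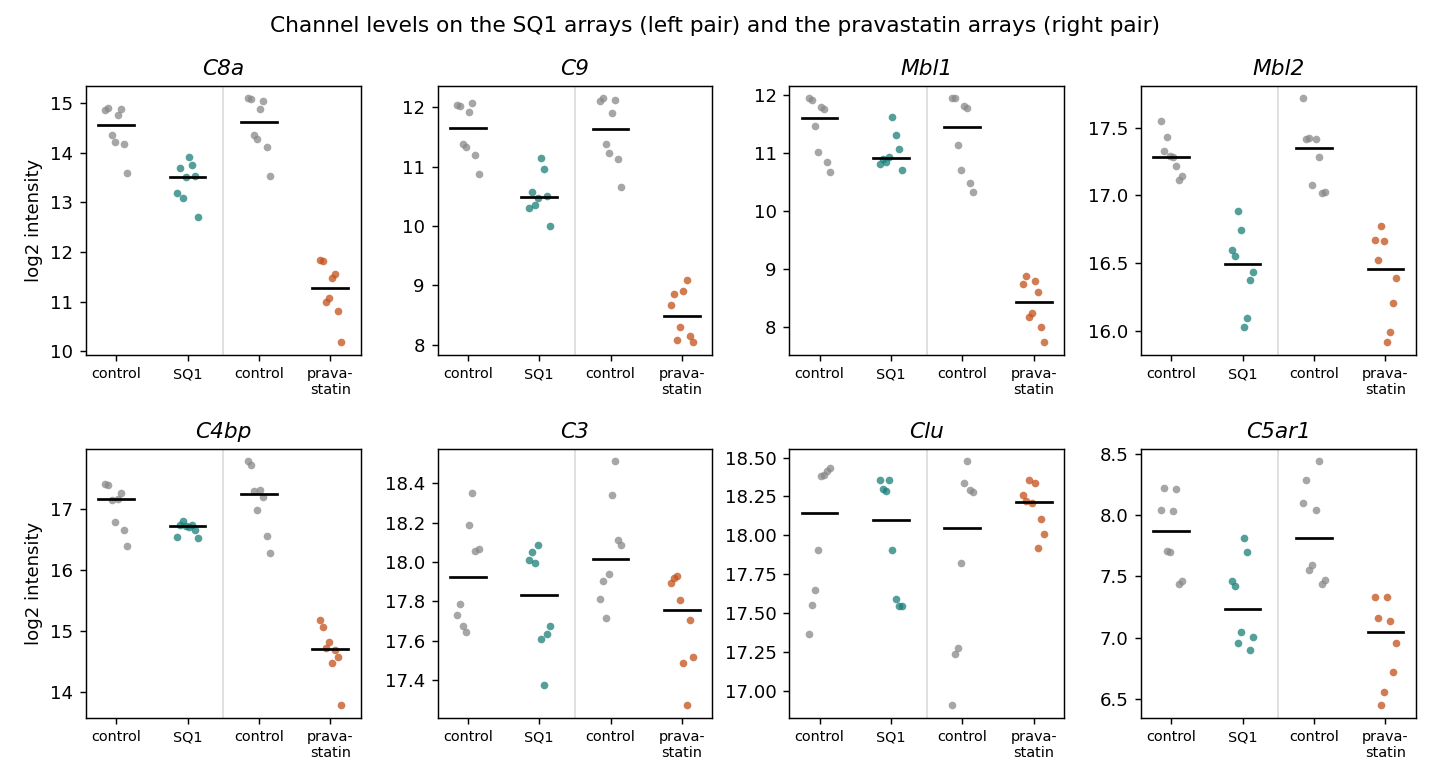
Log2 intensity (y axis, after normexp, loess and scaling between arrays) of 8 complement genes in the control and SQ1 channels of the 8 SQ1 arrays and in the control and pravastatin channels of the 8 pravastatin arrays, each panel with its own axis that does not start at 0. Points are arrays and bars are medians, with the dye effect of each gene left in. For C8a, C9, Mbl1, C4bp, Mbl2 and C5ar1 the pravastatin channels lie wholly below the controls, for C3 and Clu the channels overlap.

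C6, which binds C5b first, came next in the pathway. C6 ratios spanned -2.59 to -1.76 over the pravastatin arrays (median -2.27). C6 fell 4.70-fold with pravastatin (-2.23 ± 0.11, adjusted p = 4.43e-11). The 8 SQ1 ratios of C6 had a median of -0.57 and reached from -1.48 to -0.33. All 8 SQ1 arrays were below 0, replicate 1 farthest, and the fitted value was -0.68 ± 0.11 (adjusted p = 1.91e-04). The beta and gamma chains of C8 had smaller fitted falls than the brighter probe of C8a, while the dimmer C8a probe lay near C8b with pravastatin (-1.92) and above it with SQ1 (-0.60). The C8b ratio with pravastatin was -2.22 on the lowest array, -1.74 at the median and -1.53 on the highest. Over the SQ1 arrays, C8b ran from -1.19 through a median of -0.62 to -0.46. C8b, the beta chain, fell with both drugs (-1.78 ± 0.085 with pravastatin and -0.72 ± 0.085 with SQ1, adjusted p = 3.06e-11 and 9.92e-06). Ratios of C8g with pravastatin lay between -1.98 and -1.15, with a median of -1.59. For C8g, the SQ1 arrays gave -0.88 (lowest), -0.42 (median) and -0.080 (highest). C8g, the lipocalin-like gamma chain, also fell with both (-1.57 ± 0.089 and -0.41 ± 0.089, adjusted p = 2.14e-10 and 0.00225). On each pravastatin array the brighter C8a probe had a lower ratio than C8b, by -1.87 to -1.26 (C8a minus C8b). This depends on the probe: the dimmer one was below C8b on 6 of 8 pravastatin arrays (difference -0.41 to 0.17) and on 2 of 8 SQ1 arrays (-0.27 to 0.53). Both genes are on chromosome 4 with no coding gene between them in RefSeq.

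Hc encodes C5, whose larger fragment seeds the membrane attack complex and whose smaller one, C5a, is a strong attractant of leukocytes. On pravastatin arrays Hc had a lowest ratio of -1.91, a median of -1.64 and a highest of -1.22. Hc fell 3.06-fold with pravastatin (-1.62 ± 0.11, adjusted p = 1.58e-09). Hc ratios spanned -1.06 to -0.0041 over the SQ1 arrays (median -0.53). The SQ1 arrays reached up to 0, and the fitted value was -0.49 ± 0.11 (adjusted p = 0.00229). The SQ1 calls of Hc and C8g ended with median centring (adjusted p = 0.118 and 0.168).

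C7, the link between C6 and C8, was dim. Its tested probe was well above background in 8 of 16 control channels and its second probe in none of them, so that its ratios rest on signal near background. The 8 pravastatin ratios of C7 had a median of 0.019 and reached from -0.12 to 0.24. The C7 ratio with SQ1 was -0.17 on the lowest array, -0.085 at the median and 0.044 on the highest. The fitted values were 0.045 ± 0.037 with pravastatin (adjusted p = 0.292) and -0.068 ± 0.037 with SQ1 (adjusted p = 0.171), and neither passed. C6, C7 and C9 sit on chromosome 15, with 1 coding gene between C6 and C7 and 6 between C7 and C9. The ratio of C6 was below that of C7 on 8 of 8 arrays of each drug. As the C7 ratios rest on signal near background, this cannot show that the genes responded differently.

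Among the recognition molecules and first proteases, all 8 genes fell with pravastatin (median -0.768) and 4 of 8 with SQ1 (C1ra, Masp2, Mbl1 and Mbl2; median -0.132). The lectin pathway starts with collagen-like proteins that bind sugars on microbes, and mice make 2 mannose-binding lectins in the liver. Over the pravastatin arrays, Mbl1 ran from -3.34 through a median of -2.83 to -2.28. Mbl1 fell 7.28-fold with pravastatin (-2.86 ± 0.12, adjusted p = 6.68e-12). Ratios of Mbl1 with SQ1 lay between -0.95 and 0.10, with a median of -0.39. With SQ1 the arrays lay on both sides of 0, 6 of 8 below, and the fitted value was -0.40 ± 0.12 (adjusted p = 0.0157). Mbl2 took a different course. For Mbl2, the pravastatin arrays gave -1.36 (lowest), -0.91 (median) and -0.50 (highest). On SQ1 arrays Mbl2 had a lowest ratio of -1.11, a median of -0.80 and a highest of -0.57. It fell by nearly the same amount with both drugs, -0.91 ± 0.092 with pravastatin and -0.83 ± 0.092 with SQ1 (adjusted p = 2.17e-07 and 5.49e-06). The ratio of Mbl1 minus that of Mbl2 was above 0 on 8 of 8 SQ1 arrays (0.087 to 0.78) and below 0 on 8 of 8 pravastatin arrays (-2.28 to -1.72). Mbl1 and Mbl2 were paired for this after their values were seen, so that the split is a description. The SQ1 call of Mbl1 ended without SQ1 replicate 1 or 2 (-0.318 and -0.337, adjusted p = 0.053 and 0.0529).

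Fcna (ficolin A) and Colec11 (collectin 11) are the other sugar-binding starters. Fcna ratios spanned -0.55 to -0.20 over the pravastatin arrays (median -0.43). Fcna fell with pravastatin (-0.42 ± 0.042, adjusted p = 1.60e-07). The 8 SQ1 ratios of Fcna had a median of 0.037 and reached from -0.019 to 0.29. Its SQ1 value was 0.085 ± 0.042 (adjusted p = 0.132), and it passed on Agilent's own ratios (0.146, adjusted p = 0.0183). The Colec11 ratio with pravastatin was -0.68 on the lowest array, -0.31 at the median and 0.36 on the highest. Colec11 fell with pravastatin by the smallest amount of the 8 (-0.32 ± 0.11, adjusted p = 0.0194), 7 of 8 arrays lying below 0. Over the SQ1 arrays, Colec11 ran from -0.17 through a median of 0.20 to 0.84. Its SQ1 value was 0.24 ± 0.11 (adjusted p = 0.126), the highest SQ1 value of the 29 and past the threshold with array weights (0.271, adjusted p = 0.0384). The pravastatin call of Colec11 ended without pravastatin replicate 1, 2 or 5 (-0.273, -0.283 and -0.269, adjusted p = 0.0604, 0.0566 and 0.0619), and with slide or scan day as a random block (adjusted p = 0.0628 and 0.0927).

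The first proteases cleave C4 and C2 once a recognition molecule has bound. Ratios of C1ra with pravastatin lay between -1.29 and -0.58, with a median of -1.11. C1ra, the C1r protease that activates C1s, fell 2.06-fold with pravastatin (-1.04 ± 0.10, adjusted p = 7.26e-08). For C1ra, the SQ1 arrays gave -0.66 (lowest), -0.30 (median) and 0.15 (highest). With SQ1 7 of 8 arrays were below 0, and C1ra fell by less (-0.32 ± 0.10, adjusted p = 0.0180). On pravastatin arrays C1s1 had a lowest ratio of -0.86, a median of -0.63 and a highest of -0.34. C1s1 ratios spanned -0.25 to 0.15 over the SQ1 arrays (median 0.026). C1s1, the C1s protease, fell with pravastatin (-0.64 ± 0.049, adjusted p = 7.76e-09) and had a value of 0.0024 ± 0.049 with SQ1 (adjusted p = 0.979). C1ra and C1s1 lie side by side on chromosome 6. The SQ1 call of C1ra ended without SQ1 replicate 1, 2 or 6 (-0.267, -0.267 and -0.273, adjusted p = 0.0572, 0.0588 and 0.0601) and with slide as a random block (adjusted p = 0.0561).

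Masp1 and Masp2 are the proteases carried by the lectins, and Masp2 is the one that cleaves C4. The 8 pravastatin ratios of Masp2 had a median of -0.94 and reached from -1.03 to -0.64. The Masp2 ratio with SQ1 was -0.49 on the lowest array, -0.17 at the median and 0.011 on the highest. Masp2 fell with both drugs, -0.90 ± 0.050 with pravastatin and -0.19 ± 0.050 with SQ1 (adjusted p = 1.71e-10 and 0.00858). Over the pravastatin arrays, Masp1 ran from -0.77 through a median of -0.56 to -0.29. Ratios of Masp1 with SQ1 lay between -0.22 and 0.20, with a median of -0.10. Masp1 fell with pravastatin (-0.55 ± 0.052, adjusted p = 9.75e-08), and its SQ1 value was -0.075 ± 0.052 (adjusted p = 0.294). With slide or scan day as a random block the SQ1 call of Masp2 ended (adjusted p = 0.0645 and 0.0619).

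All 5 convertase genes that were tested fell with pravastatin (median -0.435), and 2 of the 5, Cfb and Cfp, fell with SQ1 (median -0.149). C2 and C4b form the convertase of the classical and lectin pathways. For C2, the pravastatin arrays gave -1.07 (lowest), -0.83 (median) and -0.65 (highest). On SQ1 arrays C2 had a lowest ratio of -0.39, a median of -0.11 and a highest of 0.044. C2 fell with pravastatin (-0.85 ± 0.058, adjusted p = 1.99e-09), and its SQ1 value was -0.15 ± 0.058 (adjusted p = 0.0553). With the replicate number as a block, C2 passed with SQ1 (adjusted p = 0.039), and it also passed without SQ1 replicate 4, 7 or 8 or pravastatin replicate 6 (adjusted p = 0.0333, 0.0425, 0.0462 and 0.049). C4b ratios spanned -0.65 to -0.22 over the pravastatin arrays (median -0.37). The 8 SQ1 ratios of C4b had a median of -0.10 and reached from -0.44 to 0.15. C4b fell with pravastatin (-0.44 ± 0.059, adjusted p = 6.14e-06) and had a value of -0.10 ± 0.059 with SQ1 (adjusted p = 0.231).

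C3 is the protein on which all pathways meet, and its fall with pravastatin was the smallest of the 5. The C3 ratio with pravastatin was -0.81 on the lowest array, -0.39 at the median and 0.026 on the highest. C3 fell 1.29-fold with pravastatin (-0.36 ± 0.076, adjusted p = 4.75e-04), and its control and treated channels, which include the dye effect, overlapped. Over the SQ1 arrays, C3 ran from -0.55 through a median of -0.13 to 0.041. Its SQ1 value was -0.13 ± 0.076 (adjusted p = 0.194). Ratios of Cfb with pravastatin lay between -1.01 and -0.41, with a median of -0.73. For Cfb, the SQ1 arrays gave -0.43 (lowest), -0.15 (median) and 0.015 (highest). Cfb, factor B of the alternative pathway convertase, fell with both drugs, -0.73 ± 0.054 with pravastatin and -0.15 ± 0.054 with SQ1 (adjusted p = 5.24e-09 and 0.0453). Cfb and C2 are neighbours on chromosome 17. The SQ1 call of Cfb is the weakest of the 18: it ended without SQ1 replicate 1, 2, 3, 6 or 8 (adjusted p = 0.0673 to 0.152) and without pravastatin replicate 1, 2, 3, 5 or 8 (adjusted p = 0.0518 to 0.0551). With median centring the pravastatin calls of C4b and C3 ended (-0.219 and -0.11, adjusted p = 0.078 and 0.463).

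Cfp encodes properdin, which stabilises the alternative convertase and is known as a product of myeloid cells. On pravastatin arrays Cfp had a lowest ratio of -0.72, a median of -0.42 and a highest of -0.18. Cfp ratios spanned -0.53 to -0.23 over the SQ1 arrays (median -0.35). It fell with both drugs by like amounts, -0.41 ± 0.053 with pravastatin and -0.36 ± 0.053 with SQ1 (adjusted p = 3.11e-06 and 9.03e-05), on all 16 arrays. Cfd, factor D, the protease that cleaves factor B and is known best from fat cells, was well above background in 1 of 16 control channels and was not tested. Of the 6 adipocyte markers, Adipoq, Retn, Lep and Plin1 were not tested either for lack of signal. The other 2 were tested: Cidec, a lipid droplet protein, rose with both drugs (0.45 with SQ1 and 0.22 with pravastatin, adjusted p = 8.44e-05 and 0.00772), and Fabp4, a fatty acid carrier, rose with SQ1 (0.61, adjusted p = 7.46e-05) and fell with pravastatin (-0.35, adjusted p = 0.00237).

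Regulators had the smallest medians of the 5 groups. With pravastatin 6 of 7 fell and Clu rose (median -0.28), and with SQ1 4 of 7 fell (Cfi, C4bp, Serping1 and Cd59a; median -0.12). C4bp, the binding protein that helps factor I destroy C4b, was the exception in size. The 8 pravastatin ratios of C4bp had a median of -2.56 and reached from -2.92 to -2.07. C4bp fell 5.61-fold with pravastatin (-2.49 ± 0.10, adjusted p = 4.90e-12), and its treated channels (13.78 to 15.18 log2 intensity) lay below all control channels (16.29 to 17.79). The C4bp ratio with SQ1 was -0.79 on the lowest array, -0.41 at the median and 0.044 on the highest. With SQ1 6 of 8 arrays were below 0, and the fitted value was -0.35 ± 0.10 (adjusted p = 0.0123). That SQ1 call ended with slide or scan day as a random block (adjusted p = 0.054 and 0.0636). Over the pravastatin arrays, Cfi ran from -1.03 through a median of -0.78 to -0.61. Ratios of Cfi with SQ1 lay between -0.36 and 0.0073, with a median of -0.23. Cfi, factor I itself, the protease that inactivates C3b and C4b, fell with both drugs (-0.77 ± 0.046 and -0.21 ± 0.046, adjusted p = 3.60e-10 and 0.00198).

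Serping1 encodes C1 inhibitor, which removes C1r and C1s from the first complex. For Serping1, the pravastatin arrays gave -0.54 (lowest), -0.27 (median) and -0.11 (highest). On SQ1 arrays Serping1 had a lowest ratio of -0.35, a median of -0.17 and a highest of -0.023. It fell with both drugs, -0.28 ± 0.043 with pravastatin and -0.17 ± 0.043 with SQ1 (adjusted p = 1.99e-05 and 0.00633). The pravastatin call ended with median centring (-0.0737, adjusted p = 0.573), as did the SQ1 calls of Serping1 (-0.0316, adjusted p = 0.858) and Cfi (-0.0636, adjusted p = 0.683).

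The membrane-bound regulators protect the cell that carries them. Cd55 ratios spanned -0.46 to -0.12 over the pravastatin arrays (median -0.28). The 8 SQ1 ratios of Cd55 had a median of -0.072 and reached from -0.15 to 0.36. Cd55, decay-accelerating factor, fell with pravastatin (-0.28 ± 0.049, adjusted p = 8.78e-05) and had a value of -0.028 ± 0.049 with SQ1 (adjusted p = 0.713). The Cr1l ratio with pravastatin was -0.32 on the lowest array, -0.22 at the median and -0.082 on the highest. Over the SQ1 arrays, Cr1l ran from -0.16 through a median of -0.035 to -0.0051. Cr1l, the rodent regulator Crry, fell with pravastatin (-0.21 ± 0.030, adjusted p = 7.54e-06) and had a value of -0.059 ± 0.030 with SQ1 (adjusted p = 0.143). Ratios of Cd59a with pravastatin lay between -0.15 and 0.025, with a median of -0.051. For Cd59a, the SQ1 arrays gave -0.18 (lowest), -0.14 (median) and 0.021 (highest). Cd59a, which keeps C9 from completing the pore, had the smallest values that passed, -0.067 ± 0.028 with pravastatin and -0.12 ± 0.028 with SQ1 (adjusted p = 0.0432 and 0.00333). The SQ1 call of Cd59a ended with median centring (-0.000155, adjusted p = 0.999) and with slide as a random block (adjusted p = 0.0583). Its pravastatin call did not last either: Agilent's own ratios turned it to 0.0166 (adjusted p = 0.581) and median centring to 0.0793 (adjusted p = 0.521), and the replicate block gave an adjusted p of 0.0565. It also ended without SQ1 replicate 5, 6 or 7 (adjusted p = 0.0509 to 0.0517) and without pravastatin replicate 1, 5, 6 or 7 (-0.0541, -0.0552, -0.0649 and -0.0573, adjusted p = 0.0784 to 0.123). Median centring ended the pravastatin calls of Cd55 (adjusted p = 0.0924) and Cr1l (adjusted p = 0.814) as well.

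Clu encodes clusterin, a secreted chaperone that also binds the assembling attack complex and keeps it out of membranes. On pravastatin arrays Clu had a lowest ratio of -0.28, a median of 0.41 and a highest of 0.68. With pravastatin 7 of 8 arrays were above 0, and Clu rose 1.27-fold (0.35 ± 0.089, adjusted p = 0.00237), the only member that rose. Its control channels on those arrays ranged from 16.91 to 18.48 (log2 intensity) and its treated channels from 17.92 to 18.36, inside the control range. These channel levels include the dye effect. With the dye effect left in, 4 of 8 arrays were below 0, namely replicates 5 to 8, with the treated RNA in Alexa 555. Replicates 1 to 4, in the other orientation, were above 0. Clu ratios spanned -0.23 to 0.32 over the SQ1 arrays (median -0.083). The SQ1 value was -0.027 ± 0.089 (adjusted p = 0.851).

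The receptors for C3a and C5a, which are known from myeloid cells, fell with both drugs. The 8 pravastatin ratios of C5ar1 had a median of -0.88 and reached from -1.43 to -0.64. The C5ar1 ratio with SQ1 was -0.69 on the lowest array, -0.60 at the median and -0.34 on the highest. C5ar1 fell 1.88-fold with pravastatin and 1.48-fold with SQ1 (-0.91 ± 0.067 and -0.56 ± 0.067, adjusted p = 4.30e-09 and 9.91e-06), and all 16 arrays were below 0. Over the pravastatin arrays, C3ar1 ran from -0.40 through a median of -0.20 to -0.087. Ratios of C3ar1 with SQ1 lay between -0.31 and -0.075, with a median of -0.18. C3ar1 fell by less, -0.22 ± 0.039 and -0.20 ± 0.039 (adjusted p = 9.83e-05 and 0.00107), also on all 16 arrays. It was dim, with control channels on the pravastatin arrays at 6.73 to 7.25 (log2 intensity). Those of C5ar1 lay at 7.44 to 8.44 and those of C7 at 6.31 to 6.69. How far low signal limits the size of the C3ar1 ratios was not tested. The SQ1 call of C3ar1 ended with scan day as a random block (adjusted p = 0.0766).

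Markers of other cell types were read beside Cfp, Fcna, C3ar1 and C5ar1, because a hepatocyte culture can hold liver macrophages. Of 17 Kupffer cell and leukocyte markers, 16 were tested, of which 9 fell and 1 rose with SQ1 (median -0.207) and 12 fell and 1 rose with pravastatin (median -0.378). Clec4f, a lectin of Kupffer cells, had a value of -0.12 with SQ1 (adjusted p = 0.114) and fell with pravastatin (-0.71, adjusted p = 8.79e-09). Cd5l, a secreted macrophage protein, fell with both (-0.79 and -0.62), as did Csf1r, the receptor for the macrophage growth factor (-0.36 and -0.46). C1qa, a chain of C1q, had a value of -0.071 with SQ1 (adjusted p = 0.359) and fell with pravastatin (-0.86, adjusted p = 9.94e-10). The 1 that rose with pravastatin was Cd14, a receptor for bacterial lipopolysaccharide (0.92, adjusted p = 1.48e-06), which had a value of -0.10 with SQ1 (adjusted p = 0.515), and the 1 that rose with SQ1 was Cd74 (0.26). Marco, a scavenger receptor, passed with neither (-0.073 with SQ1 and -0.016 with pravastatin, adjusted p = 0.345 and 0.809). Cd14, Cd74 and Marco were named after their values were seen. The summed level of the 16 markers (log2) ranged over 14.25 to 15.06 in the controls and 13.99 to 14.7 in the SQ1 channels, and over 14.22 to 15.06 and 14.14 to 15.01 on the pravastatin arrays. Of 7 neutrophil markers 2 were tested, and S100a8, S100a9, Ly6g, Elane and Mpo were not. The part of these cells in the values of the 4 genes was not tested, and in such a mixed extract fewer cells of a type and less RNA per cell cannot be told apart.

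Hepatocyte markers moved with the liver-made members. All 14 fell with pravastatin (median -1.40), 13 of them at least 2-fold, and 7 of 14 fell with SQ1 (median -0.267). Alb, the albumin gene, fell with pravastatin (-1.05) and had a value of -0.078 with SQ1 (adjusted p = 0.514). Their summed level (log2) ranged over 20.93 to 21.17 in the control and 19.13 to 20.32 in the treated channels of the pravastatin arrays, and over 20.42 to 21.12 and 20.22 to 20.86 on the SQ1 arrays. Another plasma cascade made by the liver, 19 coagulation and fibrinolysis factors, had 18 lower with pravastatin (median -1.23) and 12 lower and 1 higher with SQ1 (median -0.35). The part of a wider loss of hepatocyte transcripts in the complement values was not tested.

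Other complement genes outside the 30 were read from a list of 32, of which 26 were tested; C4a, Ptx3, Itgax, Fcnb and Cd46 were among those without a tested probe. With pravastatin 21 of 26 fell and 2 rose (median -0.696), and with SQ1 6 fell and 1 rose (median -0.0609). Cpn2, Crp and Vtn were among the 6 with the largest values. Cpn2, the large subunit of the carboxypeptidase that trims C3a and C5a, fell with both drugs (-2.79 ± 0.088 with pravastatin and -0.45 ± 0.088 with SQ1). Vtn, vitronectin, which like clusterin binds the attack complex, fell with both (-1.51 ± 0.057 and -0.39 ± 0.057). Crp, a pentraxin, fell with pravastatin (-2.04 ± 0.086) and had a value of -0.017 ± 0.086 with SQ1 (adjusted p = 0.907). The 2 that rose with pravastatin were Cpb2 (0.41) and C1qbp (0.23), and the 1 that rose with SQ1 was Cd93 (0.27); these were named after their values were seen.

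The difference between the drugs was tested as SQ1 minus pravastatin in the same fit. Of the 29 genes, 21 were higher with SQ1 and 1 (Clu) was lower, where 53.1% of all genes were called, 29.3% higher and 23.8% lower. The median difference was 0.56, against 0.013 over all genes. Mbl1 had the largest, 2.46 (95% interval 2.11 to 2.82, adjusted p = 9.84e-09), followed by C8a (2.28, 2.03 to 2.52), C4bp (2.13, 1.84 to 2.43) and C9 (2.01, 1.76 to 2.26). C6 (1.55), C8g (1.17), Hc (1.12) and C8b (1.06) also differed by more than 1 on the log2 scale, so that 8 of 29 were at least 2-fold higher with SQ1, as were 3.57% of all genes. The dimmer C8a probe differed by 1.31, less than C4bp, C9 and C6. For Masp2 the 3 probes differed by 0.71, 0.86 and 1.59, the last being the probe for its other transcript. The place of C8a and the count of 8 therefore depend on the probe used for a gene. Clu was lower with SQ1 than with pravastatin (-0.38, -0.64 to -0.11, adjusted p = 0.0187).

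The other 7 did not pass. Mbl2 differed by 0.075 (95% interval -0.20 to 0.35), Cfp by 0.058 (-0.10 to 0.22) and C3ar1 by 0.024 (-0.093 to 0.14). The upper ends of these intervals lie below the difference of C8b, the smallest of the 8 above 1. C3 (0.23, 0.00035 to 0.46), Serping1 (0.11, -0.014 to 0.24), Cd59a (-0.053, -0.14 to 0.030) and C7 (-0.11, -0.22 to -0.0033) lay near the threshold or near 0. With the replicate number as a block C3, C7 and Serping1 passed (adjusted p = 0.0105, 0.0253 and 0.025). C3 also passed without SQ1 replicate 6 (0.292, adjusted p = 0.0212) or pravastatin replicate 7 (0.288, adjusted p = 0.0246), and C7 without pravastatin replicate 2 (-0.138, adjusted p = 0.0316). For C3 the mean over its probes passed (0.249, adjusted p = 0.0402), as did its dimmer probe alone (0.27, adjusted p = 0.0183). Cd59a passed on Agilent's own ratios (-0.128, adjusted p = 0.00718), as did C3 (0.326, adjusted p = 0.0158). The call of Clu ended on those ratios (-0.277, adjusted p = 0.0943), and a random block for the scan day ended it too (-0.324, adjusted p = 0.0627). The calls of Cd55, C5ar1 and Clu ended with slide as a random block (adjusted p = 0.0611, 0.0642 and 0.114), and median centring ended those of C4b, Cd55 and Cr1l (adjusted p = 0.198, 0.153 and 0.633). Agilent's own ratios moved the share of higher genes among all calls of this comparison from 55.1% to 44.7%. Each slide held 1 drug, so that slide and drug cannot be told apart in it beyond the control RNA on every array.

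**Figure D3:**
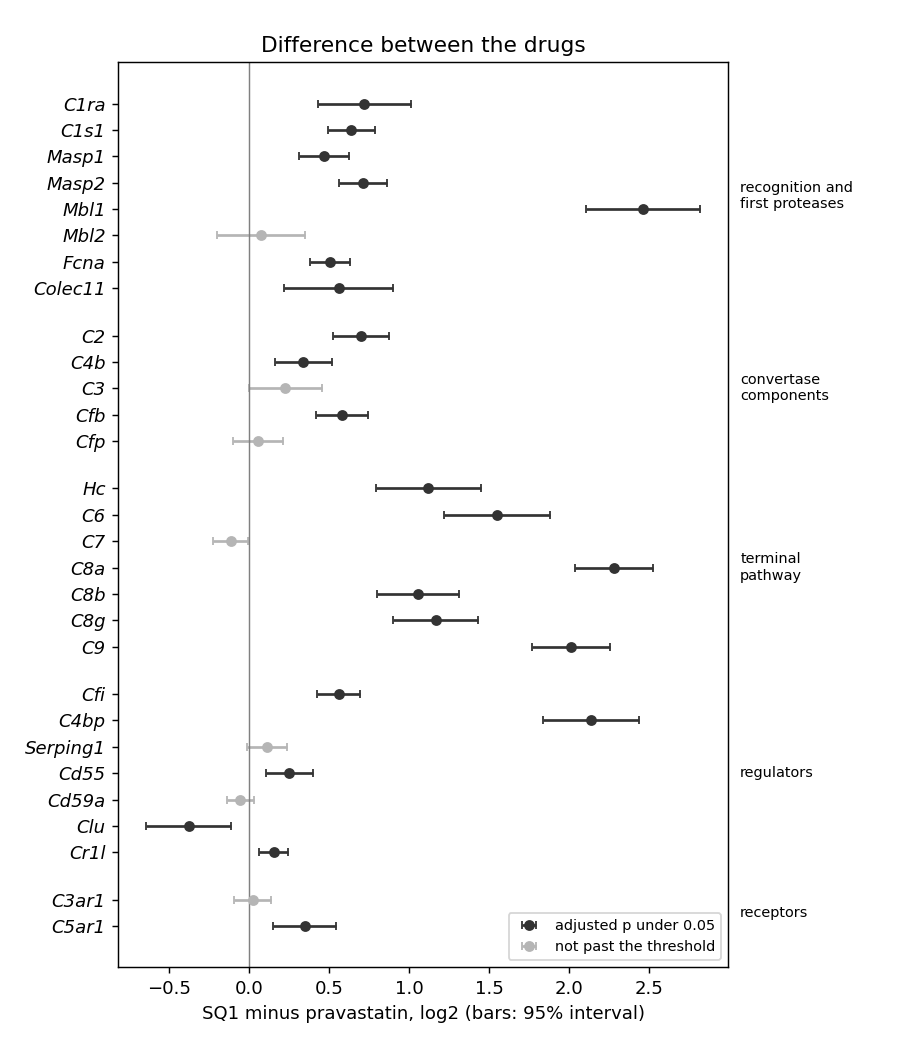
Fitted difference SQ1 minus pravastatin (x axis, log2, with 95% interval) for the 29 tested complement genes, grouped by role. Black points passed an adjusted p of 0.05 and grey points did not; Mbl1 (2.46), C8a (2.28), C4bp (2.13) and C9 (2.01) lie farthest to the right and Clu (-0.38) is the only black point left of 0.

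The arrays of a drug were spread over 2 slides, whose values differed. Replicates 1, 2, 5 and 6 were on slides 1 and 3, and replicates 3, 4, 7 and 8 were on slides 2 and 4. A slide difference therefore cannot be told apart from a difference between these sets of replicates, with either drug. Within slide 1, 21 of 29 genes were lower with SQ1 (median -0.265), and within slide 2, 10 were lower and Colec11 was higher (median -0.114). Over all genes, 5237 were called with SQ1 within slide 1 (44% of them higher) and 4062 within slide 2 (52% higher). The slide difference itself passed for 10 members (C1ra, Mbl1, Mbl2, Colec11, C2, Hc, C8b, C8g, C9 and C4bp), each with the lower value on slide 1, against 12.3% of all genes. C4bp had a value of -0.63 on slide 1 and -0.077 on slide 2 (adjusted p = 4.26e-05 and 0.545), C1ra -0.58 and -0.062 (adjusted p = 1.28e-05 and 0.543), and Mbl1 -0.69 and -0.11 (adjusted p = 1.54e-04 and 0.471). Hc had -0.79 and -0.20 (adjusted p = 4.00e-06 and 0.0849). The SQ1 falls of these 4 therefore rested on the replicates of slide 1. The SQ1 calls of Masp2, Cfb, C8g and Serping1 also ended within slide 2 (-0.080, -0.089, -0.21 and -0.16, adjusted p = 0.315, 0.377, 0.0652 and 0.0536). Colec11 was not called on slide 1 (-0.052) and rose on slide 2 (0.53, adjusted p = 0.00180). By contrast the 10 genes lower within slide 2 fell on both slides. Among them were Mbl2 (-1.03 and -0.63), C8a (-1.22 and -0.88), C8b (-0.95 and -0.49), C9 (-1.27 and -0.86) and C5ar1 (-0.53 and -0.60). The others were C6 (-0.87 and -0.50), Cfp (-0.42 and -0.29), Cfi (-0.26 and -0.16), C3ar1 (-0.22 and -0.17) and Cd59a (-0.13 and -0.11).

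With pravastatin the slides differed in sizes more than in calls. Within slide 3, 27 genes were lower and Clu was higher (median -0.813), and within slide 4, 25 were lower and Clu did not pass (median -0.643). Over all genes, 9684 were called with pravastatin within slide 3 (45.3% of them higher) and 8649 within slide 4 (47% higher). The slide difference passed for 9 members (C1ra, C1s1, Mbl1, Mbl2, C2, Cfp, Hc, C8b and C8g), each lower on slide 3, against 21.8% of all genes. Mbl2 had -1.18 on slide 3 and -0.63 on slide 4, while C8a had -3.35 and -3.30. Clu had 0.44 and 0.25 (adjusted p = 0.00280 and 0.0685), Colec11 -0.53 and -0.12 (adjusted p = 3.43e-04 and 0.365), and Cd59a -0.10 and -0.036 (adjusted p = 0.0383 and 0.462), so that these 3 calls ended on slide 4. Slide 3 was scanned on another day than the other slides, so that slide and scan day cannot be told apart within pravastatin.

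**Figure D4:**
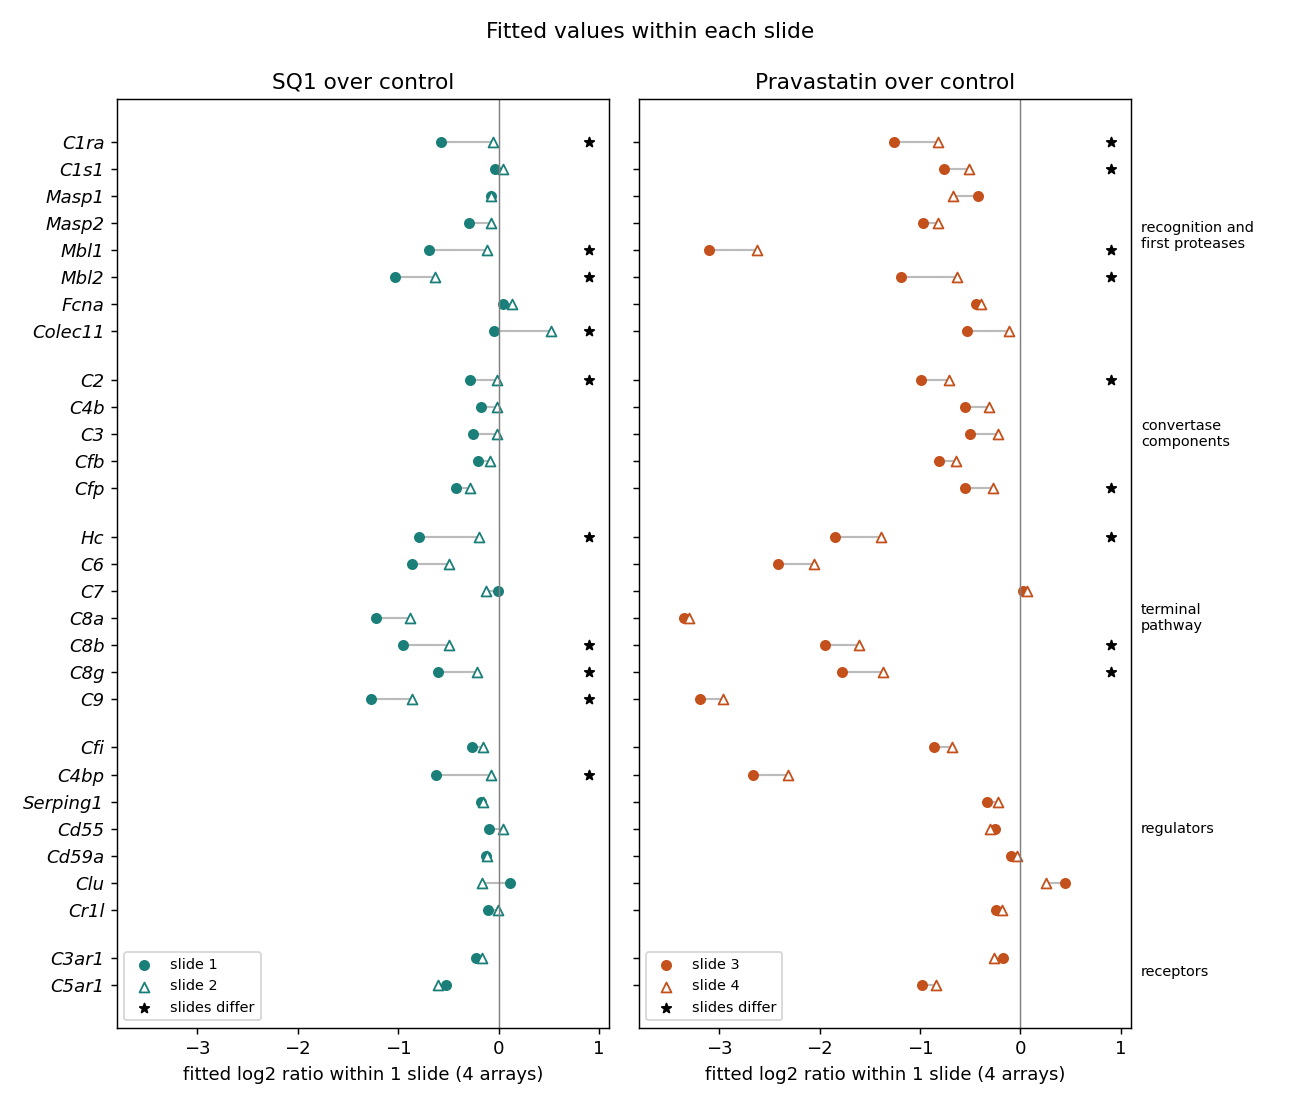
Fitted log2 ratio (x axis) of the 29 tested complement genes within each slide, SQ1 on slides 1 and 2 (left) and pravastatin on slides 3 and 4 (right), each value from 4 arrays and joined by a grey line. Stars mark the 10 genes with SQ1 and the 9 with pravastatin whose slides differed at an adjusted p of 0.05; every starred gene is lower on slide 1 or on slide 3.

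Of the tested genes, 6 had more than 1 tested probe. C8a had the widest split: its brighter probe gave the values above, and its other probe fell 3.78-fold with pravastatin (-1.92 ± 0.061, adjusted p = 3.87e-13) and 1.52-fold with SQ1 (-0.60 ± 0.061, adjusted p = 1.95e-06). Both probes of C8a fell with each drug, but the size of its fall depends on the probe. Masp2 has 3 probes for 2 transcripts of the gene. The first 2, for the same transcript, gave -0.90 and -0.99 with pravastatin, and the third, for the other transcript, gave -1.93 ± 0.12 (adjusted p = 8.22e-10). With SQ1 the 3 gave -0.19, -0.12 (adjusted p = 0.111) and -0.34 (adjusted p = 0.0409), so that 1 of the 3 did not pass. The pairs of C1ra (-1.04 and -0.96 with pravastatin), C3 (-0.36 and -0.37), C8g (-1.57 and -1.48) and Serping1 (-0.28 and -0.32) lay close together.

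**Figure D5:**
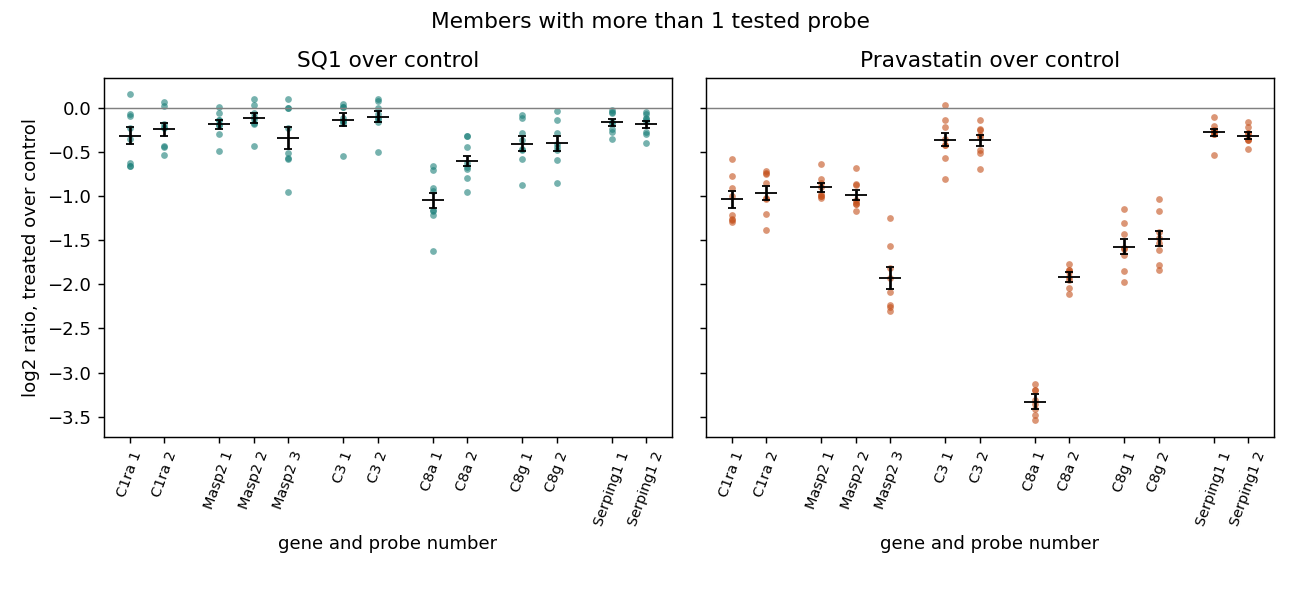
Log2 ratio of treated over control (y axis) on the 8 arrays of each drug for every tested probe of the 6 complement genes with more than 1. Points are arrays and black marks fitted values ± 1 standard error; the 2 probes of C8a (-3.33 and -1.92 with pravastatin) and the third probe of Masp2 (-1.93) stand apart from their partners, while the other pairs overlap.

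Under every other choice of processing that was tried (30 for each drug, single slides and left-out arrays included), the calls that held throughout were those of Mbl2, Cfp, C6, C8a, C8b, C9 and C5ar1 with SQ1 (7 of 18). With pravastatin 20 of 28 held throughout, and the 8 that did not were Colec11, C4b, C3, Serping1, Cd55, Cd59a, Clu and Cr1l. Of the 11 SQ1 calls that did not hold, median centring ended 10 (C1ra, Masp2, Mbl1, Cfb, Hc, C8g, Cfi, C4bp, Serping1 and Cd59a), slide as a random block 7 (C1ra, Masp2, Mbl1, Cfb, C4bp, Serping1 and Cd59a) and scan day as a random block 6 (Masp2, Mbl1, Cfb, C4bp, Serping1 and C3ar1). Within slide 2, 8 of the 11 ended (C1ra, Masp2, Mbl1, Cfb, Hc, C8g, C4bp and Serping1). For the difference 17 of 22 held, and C4b, Cd55, Clu, Cr1l and C5ar1 did not.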

How the data were processed

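The 16 deposited scanner files give, per the file headers, each spot's median intensity and local background in both channels, unnormalized, and a log10 ratio of red over green that Agilent Feature Extraction 11.0.1.1 had background-subtracted and dye-normalized. The deposited series table holds values on the log2 scale, which follow that ratio turned to treated over control (correlation 0.742 to 0.999 per array over 39429 probes, column medians -0.0677 to 0.14); how the authors centred it is not given in the sources used here. Median intensities were used, since the files hold no mean signal, which the plan had named.

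The limma package (3.58.1, R 4.3.3) corrected background by normexp (offset 50) and normalized each array by a loess curve, and replicate spots were averaged. Control spots and spots marked as outliers had weight 0. Of 39429 probes, 27234 were named through RefSeq (20659 genes). A probe was tested if well above background on at least 4 treated arrays of a drug or in at least 8 control channels and if it had ratios on 7 or more of a drug's arrays, for both drugs. A gene was its brightest probe on average, which left 15053. One fit over all 16 arrays had a column for each drug (plus or minus 1 by dye) and a constant dye column, with 13 residual degrees of freedom. Tests were two-sided, with Benjamini-Hochberg adjustment over 15053 genes. The fit was also tested on simulated data. Channel levels were also scaled between arrays (Aquantile).

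The array design names mouse build mm9, so no gene coordinates are given from it. Promoter windows and neighbour order come from RefSeq on GRCm38.p6. The members and the lists were chosen with earlier results of these data known. The text names all 30 members, 3 of the 6 other complement genes with the largest called value (the rest of the 6 are not reported here), and Clec4f, Cd5l, Csf1r and C1qa. Replicate numbers are those of the labels. Samples of the 2 drugs with the same number deviated together (correlations 0.221 to 0.718 over the 8 numbers, each over 0.1, the rule used here). By this rule the numbers were tried as pairs, although 5 of the 8 (1, 2, 3, 7 and 8) correlated better with another number. Slide differences were left in these deviations. The main fit did not use the pairs, which entered only as the replicate block among the alternatives. It thus treated same-numbered arrays as independent. For the difference between the drugs, 9620 genes were called with the replicate block, against 7996 in the main fit. Control RNA may be the same. Same-numbered arrays gave a block correlation of 0.47, arrays of a slide 0.27. Alternatives were the Agilent ratios, the series table, median centring, no background correction, other filters, the mean over probes, array weights, an adjusted p of 0.01, blocks, single slides, and leaving out each array.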

Additional observations from a re-analysis of the deposited data

Results flagged for a closer look

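In 6 of the 58 groups of 8 arrays (29 genes with each drug), 1 array lay apart from the other 7, its gap to the nearest taking more of the group's range than Dixon's limit for 8 values. Chance alone puts about 5% of groups past it. With SQ1, the ratio of Cd55 was 0.356 on replicate 8 and at most -0.026 on the others. C3 was at -0.546 on replicate 6, where the next lowest was -0.171. On the same replicate 6 Masp1 reached 0.2, with the next highest at -0.0328. C6 was at -1.48 on replicate 1, and its next lowest was -0.835. With pravastatin, Colec11 stood at 0.356 on replicate 4 while the others were at most -0.191, and Serping1 stood at -0.535 on replicate 6 with the next lowest at -0.303. The cause was not tested for any of them.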

How the results depend on the processing

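For pravastatin (29 genes under 30 alternatives), 839 values kept their direction and side of the threshold, 28 lost the call and 3 reversed. For SQ1, 805 kept both, 52 lost the call and 13 gained it. For the difference, 791 kept both, 10 lost the call and 11 gained it. The alternatives were not independent. Leaving out an array of the other drug left a drug's fitted values unchanged, and an adjusted p of 0.01 used the main fit. The Agilent ratios and the series table changed the same member calls. The values that kept both are therefore not a count of separate checks. The reversals were Cd59a with pravastatin, at 0.0166 with the Agilent ratios and the deposited series table and 0.0793 with median centring. All genes called with SQ1 numbered 2071 with median centring, 2543 with a slide block, 2239 with a scan day block and 3121 at an adjusted p of 0.01, against 4860. Members lower with SQ1 were 8 with median centring, 11 with the slide block and 10 within slide 2, against 18, and 1 was higher with the Agilent ratios, the series table, array weights and within slide 2. With pravastatin, median centring moved the members' median to -0.51, and within slide 4, 0 were higher in the limma fit (1 at an unadjusted p under 0.05). For the difference, median centring called 3697 genes against 7996, and members lower were 0 with slide or scan day as a block and at an adjusted p of 0.01, 2 with the replicate block and 1 to 2 with 1 array left out. The share of higher genes among calls moved to 71.1% (SQ1, median centring), to 56.8% (pravastatin, Agilent ratios and series table) and 61% (median centring), and to 44.7% (difference, Agilent ratios and series table). The replicate block changed the calls of C2 with SQ1, Cd59a with pravastatin, and C3, C7 and Serping1 in the difference, and of no other member. Leaving out 1 array gave 15 to 19 members lower with SQ1, 25 to 27 with pravastatin and 21 to 22 higher in the difference. The median over all genes moved by under 0.1 with each scaling. Signal near background limits C7 and kept Cfd out.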
